A study of Mus musculus with 4 samples.

Results

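Transcripts of 10 genes linked to cell-cycle arrest and senescence were followed in mouse embryonic fibroblasts (MEFs) that were being reprogrammed toward hepatocytes with or without a functional Cre recombinase against Prox1. The genes were the 4 INK4 inhibitors of cyclin-dependent kinases (CDKs) Cdkn2a, Cdkn2b, Cdkn2c and Cdkn2d, the CIP/KIP inhibitor Cdkn1b, the pocket protein gene Rb1, and Lmnb1, Glb1, Hmga1 and Hmga2. They were selected by gene name and make up 10 of the 55397 genes in the table of normalized counts. Each name matched 1 row. All 10 were expressed above the filter on low values, a minimum of 10 for the average normalized count across libraries, which 15809 genes passed. Rb1 was higher (1.21 times the control level) and Cdkn2c was lower (0.782 times) in the libraries with the Prox1 KO label, and the other 8 genes did not pass the test.

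INK4 proteins bind CDK4 and CDK6 and keep them from pairing with D-type cyclins, whereas p27, the product of Cdkn1b, acts mainly on cyclin E and cyclin A complexes with CDK2. Active CDKs phosphorylate RB1, which otherwise holds E2F factors inactive and thereby restrains entry into S phase. Cultured MEFs are known to accumulate INK4 transcripts as they approach senescence, and the Cdkn2a locus is known as a barrier to reprogramming. Senescent cells are also recognised by loss of lamin B1, by lysosomal beta-galactosidase activity, which Glb1 encodes, and by chromatin foci to which HMGA proteins contribute.

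The cells were primary MEFs from E13.5 embryos of C57BL/6J mice, obtained per line from the limbs of several pooled embryos, with floxed Prox1 alleles (Prox1 fl/fl). Both groups carried these alleles and received lentivirus encoding the 4-in-1 hepatocyte reprogramming factors, together with Cre-GFP (Prox1 KO, 2 libraries) or dCre-GFP, a non-functional delta form of the recombinase (control, 2 libraries), and RNA was collected at day 14. RNA was taken from whole transduced cultures. Prox1 itself was not lower in the libraries with the Prox1 KO label, with 72.7 and 61.6 normalized counts in replicates 1 and 2 against 60.6 and 25.5 in the controls. Its log2 fold change was 0.75 with an adjusted p of 0.0936 (limma), on 24 to 70 reads per library. Which exons Cre removes is not given in the sources used here, and a whole-gene count includes any exons left in place. The Prox1 count is for both reasons a weak check of the label. The groups are therefore named by their labels throughout.

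Between 42469031 and 48524008 reads per library fell on genes. The fibroblast markers Col1a1, Col1a2 and Vim were abundant in every library, and the hepatocyte markers Afp and Alb were detected in all 4. The summed normalized counts of 9 hepatocyte markers were 19226 and 21188 in the libraries with the Prox1 KO label and 27920 and 30908 in the controls, and 7 of the 9 were lower by the test, Afp, Krt18 and Apoa1 among them, whereas Alb did not pass. Of 8 fibroblast markers, S100a4 rose and Pdgfra and Dcn fell, and of 4 tested macrophage markers, Cd14 fell, while Adgre1 was at 0 in every library. Of 5 epithelial markers, Cdh1, Cldn6, Epcam and Krt19 fell. Kdr (endothelial, 1 of 3 tested), Des (skeletal muscle, 1 of 2 tested) and Map2 (neuronal, 1 of 3 tested) rose, and the 1 adipocyte marker tested, Fabp4, did not pass. These calls are limma's, with the replicate number as a block. DESeq2 with the same block called 4 of the 9 hepatocyte and 4 of the 5 epithelial markers, all lower. It called 0 of the fibroblast markers (3 at an unadjusted p under 0.05) and 0 of the skeletal muscle markers (1). Among macrophage, endothelial and neuronal markers it called 1 each. In bulk RNA, fewer cells of a type and less RNA per cell cannot be told apart. The part of these shifts in the values below was not tested.

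The promoters of 2 INK4 genes are shown because Cdkn2a had the highest level per length of the 10 genes and Cdkn2c was the INK4 gene that fell, and because each has a pair of annotated starts whose reads are summed in a single gene count. Each window spans a RefSeq start and the sequence before it on GRCm38.p6 and is given 5′ to 3′ on the minus strand. Capitals mark GC boxes (GGGCGG) and, in the first window, an E2F-type motif (TTTCCCGC).
Cdkn2a window 1, chr4:89294570-89294869: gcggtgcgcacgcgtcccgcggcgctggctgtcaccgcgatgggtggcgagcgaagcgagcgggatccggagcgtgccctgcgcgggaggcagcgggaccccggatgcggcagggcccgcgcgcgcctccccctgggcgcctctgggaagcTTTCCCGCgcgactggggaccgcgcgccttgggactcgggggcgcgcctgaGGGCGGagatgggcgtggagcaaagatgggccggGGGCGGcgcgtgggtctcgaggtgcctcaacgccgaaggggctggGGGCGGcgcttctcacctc
Cdkn2a window 2, chr4:89282143-89282442: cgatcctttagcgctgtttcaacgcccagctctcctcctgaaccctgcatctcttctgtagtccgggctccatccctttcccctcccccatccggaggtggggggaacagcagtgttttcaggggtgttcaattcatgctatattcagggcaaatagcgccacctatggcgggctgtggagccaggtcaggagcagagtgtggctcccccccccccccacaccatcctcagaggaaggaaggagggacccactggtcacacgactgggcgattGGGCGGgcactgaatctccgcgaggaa
Cdkn2c window 1, chr4:109666707-109667006: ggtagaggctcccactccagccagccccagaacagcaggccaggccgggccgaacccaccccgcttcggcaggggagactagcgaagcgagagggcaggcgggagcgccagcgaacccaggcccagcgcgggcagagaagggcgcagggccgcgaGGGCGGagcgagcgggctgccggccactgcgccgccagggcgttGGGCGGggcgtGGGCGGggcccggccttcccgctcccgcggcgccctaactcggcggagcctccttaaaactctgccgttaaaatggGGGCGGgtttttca
Cdkn2c window 2, chr4:109665323-109665622: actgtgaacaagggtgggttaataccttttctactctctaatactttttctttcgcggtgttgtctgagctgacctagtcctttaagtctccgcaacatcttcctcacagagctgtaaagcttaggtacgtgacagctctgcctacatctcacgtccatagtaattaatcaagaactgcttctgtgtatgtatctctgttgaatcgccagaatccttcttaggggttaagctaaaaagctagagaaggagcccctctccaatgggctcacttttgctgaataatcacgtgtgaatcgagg

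The first Cdkn2a window lies at the upstream first exon, from which the p19ARF transcript starts, and the second at the downstream first exon, from which p16INK4a starts. On GRCm38 the first exons span 89294334 to 89294653 (320 bases) and 89281986 to 89282192 (207 bases) of chromosome 4, and both transcripts share exon 2 (89276645 to 89276985). The 4 E2F-type motifs (TTTCCCGC, TTTGGCGC, TTTCGCGC and TTTGCCGC) and the GC box were searched on both strands. Of the 10 genes, 8 had entries in the promoter table, with 11 windows, and Rb1 and Lmnb1 had none. An E2F-type motif occurred in 1 of the 11 windows, the first of Cdkn2a, where it began 99 bases before the start, and in 2.26% of 32851 promoters. GC boxes occurred in 10 of the 11 windows, all but the second of Cdkn2c, and in 35.7% of all promoters. These are matches of letters and not evidence of binding.

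Across the 10 genes, 2 were called at an adjusted p under 0.05, 1 higher and 1 lower. Among all tested genes 11.4% were called, 5.09% higher and 6.29% lower. The groups did not overlap for 5 of the 10 genes, beside 44.4% of all tested genes. Of these 5, 2 were higher and 3 lower in the libraries with the Prox1 KO label, beside 21.8% and 22.6%. At an unadjusted p under 0.05 there were 5 of the 10, beside 23.7%, and for 9 of the 10 both pairs had the same sign, beside 65.8%. The median log2 fold change was −0.07 for the 10 genes and −0.00 for all tested genes, and the median size of the difference regardless of sign was 0.13 and 0.10. The test was limma on log2(normalized counts + 1) with the replicate number as a block, and p-values were adjusted over all 15809 genes. The p-values cover only these 2 pairs of libraries. Variances in limma were drawn toward a trend over all tested genes (14.2 prior degrees of freedom). Standard errors, intervals and p-values therefore rest largely on the spread of other genes, besides that of a gene's own pairs. With 2 libraries a group the smallest two-sided p of an exact permutation test is 0.333. Called genes depended on the block, since without it limma called 0 of the 10 (2 at an unadjusted p under 0.05) and 0 genes in all (0.0%, 1783 unadjusted). edgeR on recovered reads with the block called 2 of the 10 and 11.4% of all genes, and DESeq2 called 0 of the 10 with the block (1 unadjusted) and 0 without it (1 unadjusted). It called 483 of the 12595 genes to which it gave an adjusted p with the block (3.83%) and 160 of 14146 without it (1.13%).

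**Figure D1:**
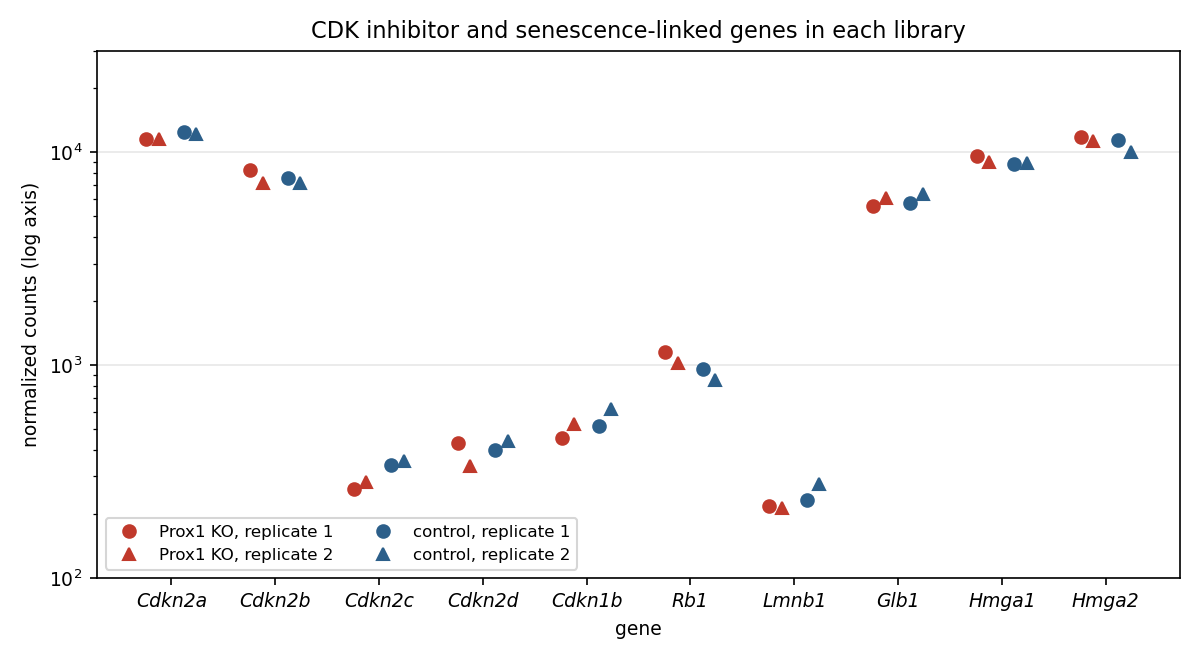
Normalized counts (log axis) of the 10 genes in each of the 4 libraries, with red for Prox1 KO, blue for control, circles for replicate 1 and triangles for replicate 2. Both red symbols lie above both blue ones for Rb1 (1024 and 1158 against 852 and 959) and below them for Cdkn2c (261 and 282 against 341 and 354).

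Cdkn2c encodes p18INK4c, an inhibitor of CDK4 and CDK6. It lies on the minus strand of chromosome 4 (109660876 to 109667189, GRCm38) and is given as ENSMUSG00000028551 in the files. The libraries with the Prox1 KO label held 261 and 282 normalized counts in replicates 1 and 2, and the controls 341 and 354. Both Prox1 KO values were below both control values, and the replicates of a group differed by less than the groups did. The means were 272 ± 15.3 and 348 ± 9.83 (SD, n = 2), a log2 fold change of −0.35 ± 0.11 (SE) with an adjusted p of 0.0456, or 0.782 of the control level (95% interval 0.667 to 0.917). The pairs gave −0.38 and −0.33. From 251 to 371 reads stood behind each value. The call was close to the threshold, and it was lost with a pseudocount of 10 (adjusted p = 0.0542), with quantile normalization (0.0984), without the block (0.377) and in DESeq2 with the block (0.642).

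Cdkn2a differed little. Its normalized counts were 11597 and 11508 in the libraries with the Prox1 KO label and 12443 and 12174 in the controls. Both Prox1 KO values were lower, by 6.13% on the fitted scale, and the log2 fold change of −0.09 ± 0.04 (SE) did not pass after adjustment (adjusted p = 0.162). The 95% interval of the ratio was 0.886 to 0.994, and the counting error was 0.947% in the library with the fewest Cdkn2a reads, Prox1 KO replicate 1. p16INK4a inhibits CDK4 and CDK6 and p19ARF restrains MDM2, and the gene count (ENSMUSG00000044303, chromosome 4, 89274471 to 89294653) adds the 2 transcripts together, so a shift from one to the other is not visible in it.

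Cdkn2b, the neighbour of Cdkn2a on the same strand (ENSMUSG00000073802, chromosome 4, 89306299 to 89311039), encodes p15INK4b, an INK4 inhibitor inducible by TGF-beta. It measured 8249 and 7142 normalized counts in the libraries with the Prox1 KO label and 7608 and 7141 in the controls. The ranges overlapped, and the excess lay in replicate 1 (pairs 0.12 and 0.00). The log2 fold change was 0.06 ± 0.04 (SE, adjusted p = 0.447), with a ratio between 0.978 and 1.11 (95% interval).

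Cdkn2d, which encodes p19INK4d (ENSMUSG00000096472, chromosome 9, 21288410 to 21291407), was the single gene of the 10 whose pairs had opposite signs, 0.10 in pair 1 and −0.39 in pair 2. Its normalized counts were 428 and 335 in the libraries with the Prox1 KO label and 400 and 441 in the controls, so the groups overlapped. The log2 fold change was −0.15 ± 0.11 (SE, adjusted p = 0.477), and its sign turned without Prox1 KO replicate 2 (0.03).

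On the RPKM scale (reads per kilobase of exon scaled to library depth, computed here), Cdkn2a stood at 234 ± 6.06 in the controls and 220 ± 2.43 in the libraries with the Prox1 KO label (SD, n = 2), and 98.9% of tested genes were at or below its level. Cdkn2b followed at 118 ± 6.53 and 124 ± 13.3. Cdkn2d was at 5.95 ± 0.343 and 5.42 ± 0.962, and Cdkn2c at 2.88 ± 0.0514 and 2.26 ± 0.115. Of the summed INK4 level per length, Cdkn2a held 61.1% to 65.2% and Cdkn2b 32.2% to 36.6% in the 4 libraries. Cdkn2c held 0.599% and 0.688% in the libraries with the Prox1 KO label and 0.77% and 0.828% in the controls. The INK4 gene that fell thus made up less than 1% of the level per length summed over these 4 genes. That sum includes the p19ARF transcript of Cdkn2a, which could not be separated from p16INK4a, so the share among INK4 transcripts alone is not known.

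**Figure D2:**
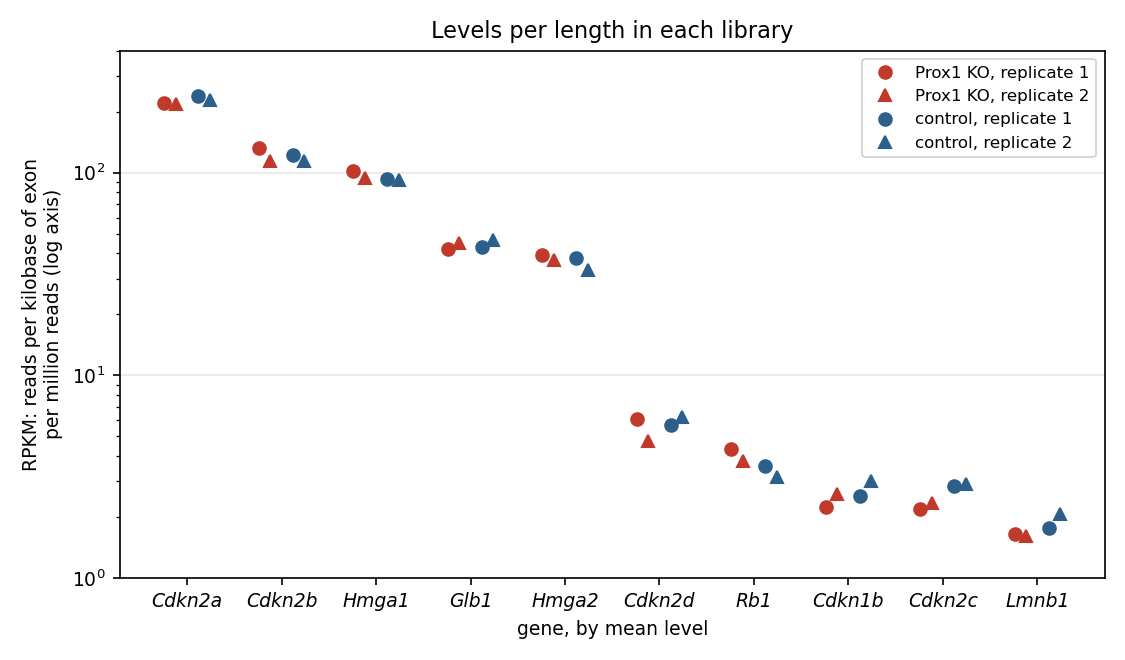
RPKM (reads per kilobase of exon scaled to library depth, log axis) of the 10 genes in the 4 libraries, ordered by mean level, with red for Prox1 KO, blue for control, circles for replicate 1 and triangles for replicate 2. Cdkn2a is highest at 218 to 238, and Lmnb1 is lowest at 1.6 to 2.07.

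By their level per length over the 4 libraries, the genes ranked Cdkn2a (227), Cdkn2b (121), Hmga1 (95.4), Glb1 (44.1), Hmga2 (36.7), Cdkn2d (5.68), Rb1 (3.7), Cdkn1b (2.595), Cdkn2c (2.57) and Lmnb1 (1.77). Cdkn1b and Cdkn2c could not be ordered, since their ranges of 2.24 to 3.02 and 2.18 to 2.92 overlapped. The other neighbours were separated in all 4 libraries as counted. The place of Hmga1 is not settled, because 59.9% of its 100-base windows also occur in another gene, Hmga1b, and how reads shared by both were counted is not given in the sources used here.

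Cdkn1b (ENSMUSG00000003031, chromosome 6, 134920401 to 134925513) measured 454 and 529 normalized counts in the libraries with the Prox1 KO label and 516 and 621 in the controls. The groups overlapped, and replicate 2 was higher than replicate 1 in both, by 0.22 and 0.27 on the log2 scale, and within each pair the library with the Prox1 KO label was lower (−0.18 and −0.23). The log2 fold change was −0.21 ± 0.08 (SE) and did not pass after adjustment (adjusted p = 0.142). Its ratio lay between 0.765 and 0.981 (95% interval). The value moved to −0.07 without control replicate 2, −0.10 without Prox1 KO replicate 1, −0.32 without Prox1 KO replicate 2 and −0.34 without control replicate 1.

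Rb1, the substrate through which CDK4 and CDK6 are held to act, rose. It is ENSMUSG00000022105 in the files and spans 73183673 to 73325822 of chromosome 14 on the minus strand. The libraries with the Prox1 KO label held 1158 and 1024 normalized counts and the controls 959 and 852. Both Prox1 KO values were above both control values, although replicate 2 was lower than replicate 1 in each group, by 0.18 and 0.17 on the log2 scale. The means were 1091 ± 94.2 and 905 ± 76.2 (SD, n = 2), with a log2 fold change of 0.27 ± 0.06 (SE), an adjusted p of 0.013 and a ratio of 1.21 (95% interval 1.09 to 1.33). The pairs gave 0.27 and 0.27. The call was lost without the block (adjusted p = 0.403) and in DESeq2 with the block (0.356), in both at almost the same fold change.

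The exons of Rb1 overlap those of Lpar6 and Rcbtb2, both on the opposite strand. Rcbtb2 fell (log2 fold change −0.29, adjusted p = 0.0037), the reverse of Rb1, and Lpar6 did not pass (0.12, adjusted p = 0.408). The libraries kept strand, but whether the counting used it is not given in the sources used here. The genes closest to Rb1 in their pattern over the 4 libraries, by Euclidean distance between centred log2 values, were Itgb1bp2 (0.0185), Fzd3 (0.0219) and Bmpr2 (0.0233), of which only Bmpr2, a receptor for bone morphogenetic proteins, passed the test itself (log2 fold change 0.25, adjusted p = 0.00147).

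**Figure D3:**
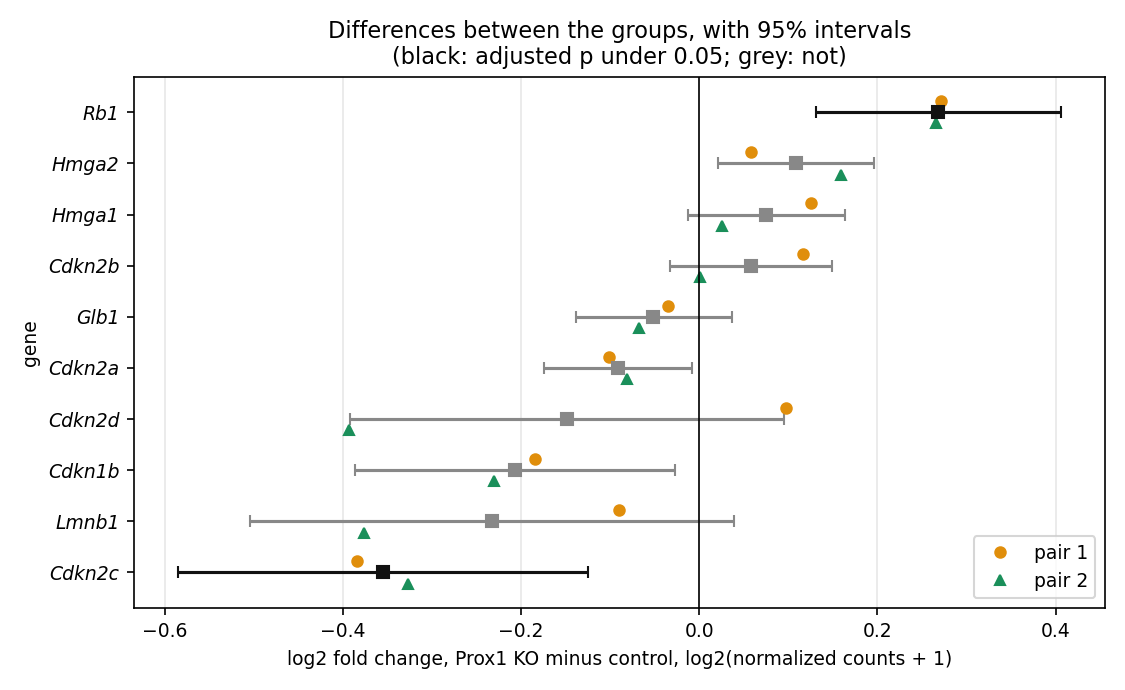
Log2 fold changes (Prox1 KO minus control, on the log2(normalized counts + 1) scale) of the 10 genes as squares with 95% intervals, black where the adjusted p is under 0.05 and grey elsewhere, with circles and triangles for the values of pairs 1 and 2. Rb1 at 0.27 and Cdkn2c at −0.35 are black, and the intervals of Cdkn2b, Cdkn2d, Lmnb1, Glb1 and Hmga1 include 0.

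Lmnb1 (ENSMUSG00000024590) encodes lamin B1 of the nuclear lamina. It measured 218 and 213 normalized counts in the libraries with the Prox1 KO label and 232 and 277 in the controls. The groups did not overlap, but the control values were further from each other than the nearest control was from the Prox1 KO libraries. The log2 fold change of −0.23 ± 0.13 (SE) did not pass (adjusted p = 0.29), the pairs gave −0.09 and −0.38, and the ratio lay between 0.705 and 1.03 (95% interval). Lmnb1 had the fewest reads of the 10 genes, from 210 to 260, with a counting error of up to 6.9%.

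Glb1 (ENSMUSG00000045594, chromosome 9, 114401076 to 114474898), the lysosomal beta-galactosidase behind the senescence stain, measured 5613 and 6067 normalized counts in the libraries with the Prox1 KO label and 5752 and 6356 in the controls. The groups overlapped, and replicate 2 was the higher in both. The log2 fold change was −0.05 ± 0.04 (SE, adjusted p = 0.497) with a ratio between 0.908 and 1.03. Of its 100-base windows, 2.36% also occur in Tmppe, which overlaps it on the same strand and did not pass (adjusted p = 0.872).

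Hmga1 and Hmga2 encode architectural chromatin proteins that bind the minor groove of AT-rich DNA. Hmga2 (ENSMUSG00000056758, chromosome 10, 120361275 to 120476469) measured 11850 and 11256 normalized counts in the libraries with the Prox1 KO label and 11382 and 10079 in the controls, so the groups overlapped. Its log2 fold change was 0.11 ± 0.04 (SE, adjusted p = 0.11) with pairs of 0.06 and 0.16, and it was 0.02 without control replicate 2, 0.07 without Prox1 KO replicate 1 and 0.20 without control replicate 1.

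Hmga1 (ENSMUSG00000046711, chromosome 17, 27556497 to 27563674) measured 9642 and 9022 against 8837 and 8866. Both Prox1 KO values were higher, with a log2 fold change of 0.08 ± 0.04 (SE, adjusted p = 0.291). Its value is uncertain, since it shares this sequence with Hmga1b, which was listed at 28.5 to 35.1 normalized counts. The exons of Hmga1 also overlap those of AI413582 on the opposite strand, which was listed at 1115 to 1364 normalized counts. AI413582 fell (log2 fold change −0.19, adjusted p = 0.0489, limma), the reverse of Hmga1, and whether the counting used strand is not given.

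Genes that act with these 10 were taken from 12 lists, chosen with earlier results of these data known. Of their 170 tested genes 39 were called, 9 higher and 30 lower, beside 11.4% of all tested genes, and 12 of the lower ones were proliferation markers. DESeq2 with the same block called 12 of the related genes, 3 higher and 9 lower. Among the 3 remaining CDK inhibitor genes Cdkn1c (p57) rose by 0.40 ± 0.05 on the log2 scale (SE, adjusted p = 3.46e-05), Cdkn3 fell by 2.05 ± 0.42 (adjusted p = 0.00476), and Cdkn1a (p21) did not pass (0.09, adjusted p = 0.191). DESeq2 also called Cdkn1c and gave no adjusted p for Cdkn3. Cdkn3, a phosphatase that acts on CDK1 and CDK2, had only 4.16 and 8.8 normalized counts in the libraries with the Prox1 KO label and 23 and 35.1 in the controls.

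Of the 9 cyclins and CDKs of G1, Ccnd1 (0.23, adjusted p = 0.00736) and Ccnd2 (0.13, adjusted p = 0.0484), the D-type cyclins that activate CDK4 and CDK6, rose and Cdk4 fell (−0.21, adjusted p = 0.0028). In DESeq2 with the block the call of Cdk4 was kept and those of Ccnd1 and Ccnd2 were lost (adjusted p = 0.44 and 0.107). Cdk4 measured 8267 and 8648 normalized counts in the libraries with the Prox1 KO label and 9506 and 10026 in the controls. Among the 12 tested relatives and partners of RB1 only E2f6, a repressive E2F factor, rose (0.15, adjusted p = 0.0378), a call lost in DESeq2 (adjusted p = 0.316). Rbl1 and Rbl2, the other pocket proteins, did not pass (−0.01 and 0.11).

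Of 24 regulators of the Cdkn2a locus, 0 rose in limma or edgeR (5 at an unadjusted p under 0.05 in each) or in DESeq2 (0), and 2 fell in limma and edgeR and 0 in DESeq2. Ezh2, the histone H3 lysine 27 methyltransferase of the Polycomb complex, measured 241 and 223 normalized counts in the libraries with the Prox1 KO label and 319 and 320 in the controls (log2 fold change −0.46, adjusted p = 0.0158), and Cbx6, another Polycomb protein, fell by 0.15 (adjusted p = 0.0181). The list median was 0.02. Of 5 partners of ARF and p53, Mdm2, the ubiquitin ligase that ARF restrains, rose (0.21, adjusted p = 0.00284, also called in DESeq2), and Trp53 was at −0.00. Of 11 tested genes that control p27, Cks1b, a cofactor of the ligase that marks p27 for degradation, fell (−0.32, adjusted p = 0.00541, but 0.218 in DESeq2), while Skp2, the substrate receptor of that ligase, did not pass (−0.30, adjusted p = 0.197).

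In the nuclear lamina list 0 of 14 genes passed in limma (4 at an unadjusted p under 0.05) or in edgeR (4) or DESeq2 (0), with Lmna at 0.08 and Syne1 at 0.09. The lysosomal list had 2 of 23 genes lower, among them Glb1l, a paralogue of Glb1 (−0.29, adjusted p = 0.0209), and 17 of the 23 had a negative value, with a median of −0.06. DESeq2 called 0 of the lysosomal genes (4 at an unadjusted p under 0.05). In the list of LIN28, IGF2BP and other HMG proteins 2 of 11 tested genes fell, Hmgb1 (−0.21, adjusted p = 0.00571) and Hmgb2 (−0.48, adjusted p = 0.00675), the HMG-box proteins that bend DNA, neither of them called in DESeq2 (adjusted p = 0.103 and 0.274). Lin28a was at 0 in every library. Of 11 heterochromatin genes 0 passed in limma (1 at an unadjusted p under 0.05), edgeR (1) or DESeq2 (0), with Cbx5 at −0.10 and Cabin1 at −0.01.

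Of 34 tested senescence-associated secretory genes 4 rose and 9 fell in limma, with a median of −0.10. DESeq2 with the same block called 6 of the list, 1 higher and 5 lower, and Il1a and Il1b were at 0 in every library. The genes with the smallest adjusted p were Igfbp4 (−0.46), Plat (−0.48), Igfbp5 (−0.43) and Cxcl12 (−0.53), all lower and all called in DESeq2 as well. Igfbp4 and Igfbp5 bind insulin-like growth factors, Plat encodes tissue plasminogen activator, and Cxcl12 is a chemokine. Those that rose included Ereg (0.27), Gdf15 (0.49) and Mmp10 (0.68), and none of these 3 calls was kept in DESeq2 (adjusted p = 0.0743, 0.253 and 0.404).

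Proliferation markers were lower throughout. Of 13 genes 12 fell and Aurkb did not pass, and the median was −0.81. The groups did not overlap for any of the 13, all lower, beside 44.4% of all tested genes in either direction and 22.6% lower. edgeR called 12 of them and DESeq2 called 3 (10 at an unadjusted p under 0.05). Top2a, a topoisomerase of dividing cells, measured 334 and 373 normalized counts in the libraries with the Prox1 KO label and 561 and 681 in the controls (log2 fold change −0.81), and Mki67 (−0.95), Plk1 (−1.04) and Mcm6 (−0.44) fell with it. The summed counts of the list were 4983 and 5795 against 6849 and 7674. Of the 10 genes, 6 had a negative value like these markers, Cdkn2c as the called one among them, and the part of proliferation in their values was not tested.

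**Figure D4:**
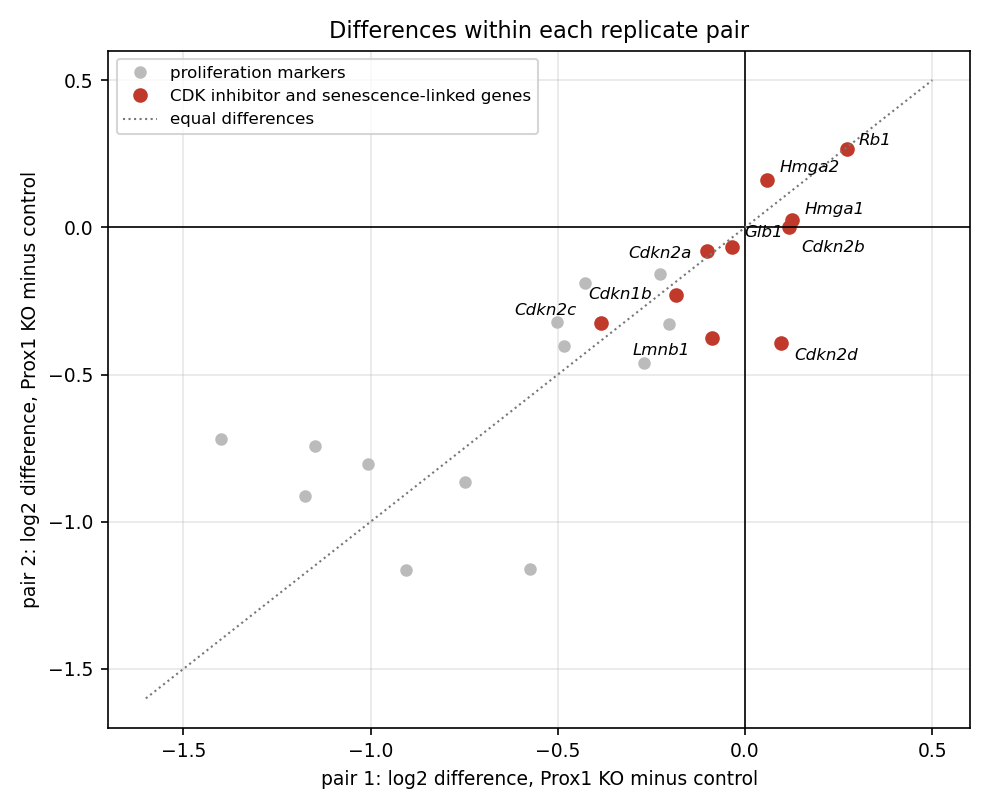
Log2 differences (Prox1 KO minus control) within pair 1 (x axis) and pair 2 (y axis) for the 10 genes in red and for the 13 proliferation markers in grey, with a dotted line where both pairs are equal. Rb1 lies on the line at 0.27 and 0.27, Cdkn2d alone lies in the quadrant of opposite signs, and all grey points are below 0 in both pairs.

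**Figure D5:**
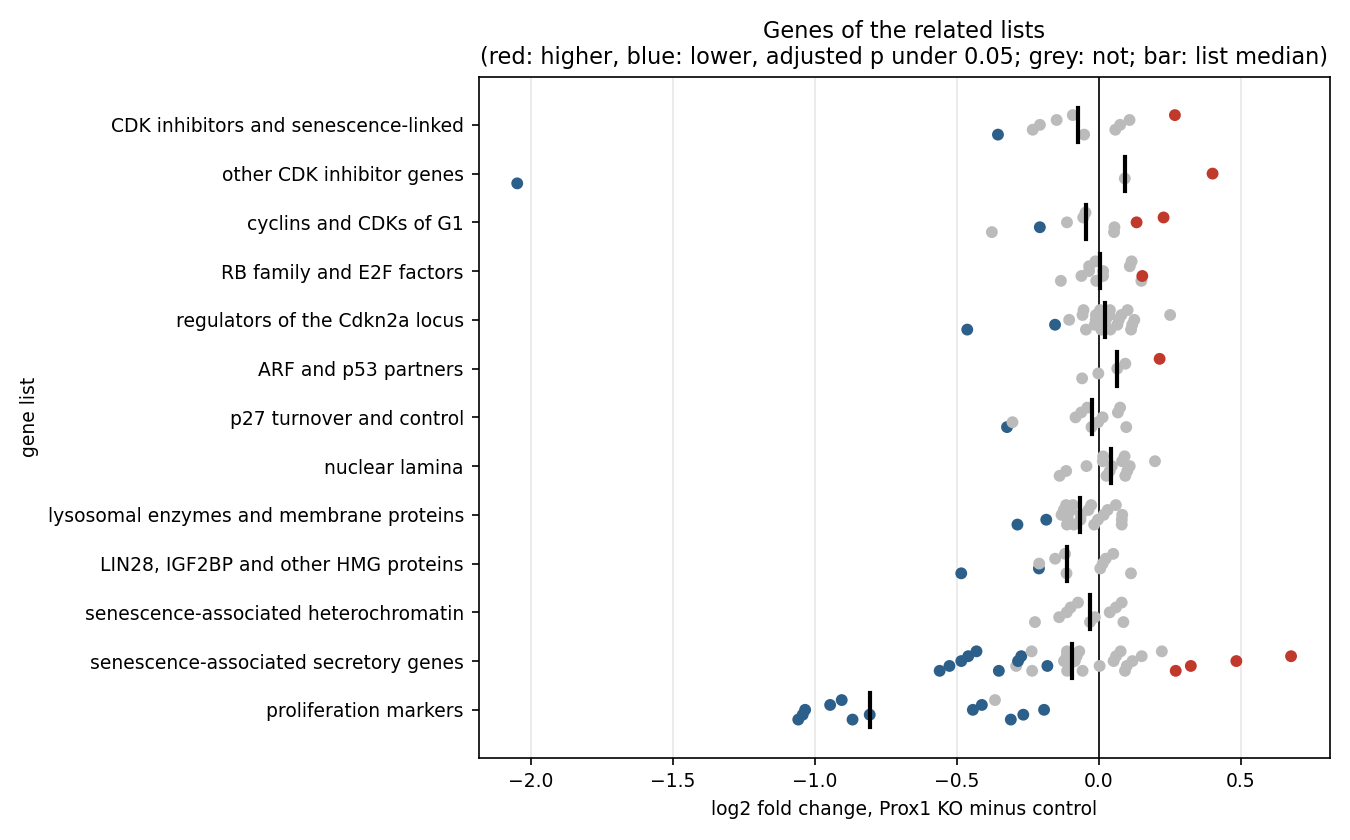
Log2 fold changes (Prox1 KO minus control) of every tested gene in each list, 1 point per gene, red where higher and blue where lower at an adjusted p under 0.05 and grey elsewhere, with a bar at each list's median. The medians lie between −0.11 and 0.09 except for the proliferation markers at −0.81, and the lone point at −2.05 is Cdkn3.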

How the data were processed

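Bulk RNA-seq libraries (dUTP protocol, paired-end reads of 100 bases) of 2 Prox1 KO and 2 control cultures were analysed, grouped by the sample labels. The authors mapped reads to mm10 with STAR (submitters' processing notes and paper), and deposited a signal per gene, normalized counts obtained by dividing read counts by DESeq2 size factors. Counting tool, strand setting and annotation release are not given in the sources used here. In each library 100% of positive values were whole multiples of 1 read (tolerance 0.001 reads), so reads were recovered for the count tests. The reads carry no molecular identifiers, so counting errors cover counting only. The authors' table of their own comparison (base mean, shrunken log2 fold change, p-value, adjusted p-value) was not used.

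Genes averaging 10 or more normalized counts were tested with limma 3.58.1 in R 4.3.3 on log2(normalized counts + 1), which understates changes of low genes, with an intensity trend, the replicate number as a block and Benjamini-Hochberg adjustment over all tested genes. The replicate numbers come from the labels, and the methods use the MEF line as a covariate. Whether a number stands for a line is not stated, but same-numbered libraries deviated together (correlation 0.402 across genes). Xist was high in both libraries of replicate 1 (14495 and 13944 normalized counts) and near 0 in both of replicate 2. Reads differed between the replicates of a group at an unadjusted chi-square p under 0.05 in 34.3% (Prox1 KO) and 35.4% (control) of tested genes. These shares include genes that pass by sampling noise alone. No library was counted as a duplicate. Alternatives were no block, pseudocounts of 0.1 and 10, no filter or a minimum of 50, quantile normalization, edgeR 4.0.16 and DESeq2 1.42.0 on recovered reads, and each library or pair left out.

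The members and lists were chosen with earlier results of these data known. Named genes were the members, Prox1, up to 4 called genes with the smallest adjusted p per list (or 2 abundant ones), abundant or called markers, and the 3 genes nearest the member with the smallest adjusted p. Cdkn1a, Trp53, Skp2, Rbl1, Rbl2, Lin28a, Il1a, Il1b, Ereg, Gdf15, Mmp10, Adgre1, Aurkb and genes overlapping a member were named after their values were seen. Coordinates and exon lengths are from GENCODE vM21 on GRCm38 (55137 of 55397 identifiers matched). Promoters are RefSeq's, on GRCm38.p6. Results for the 4-in-1 factors and for some listed genes are not reported here.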

Additional observations from a re-analysis of the deposited data

How the results depend on the processing

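With all 4 libraries, each of the 10 genes kept its direction under all 90 combinations of gene and alternative setting. Rb1 was called in 7 of 10 settings (adjusted p from 0.00255 to 0.645) and Cdkn2c in 5 of 10 (0.0173 to 0.747). Without the replicate block limma called 0 genes (1783 at an unadjusted p under 0.05), 0 of the 10 and 0 of the related genes, with Rb1 at 0.2686 and Cdkn2c at −0.355. With a pseudocount of 10 or quantile normalization 1 of the 10 was called, and Cdkn2c was at −0.3449 and −0.3057. DESeq2 with the replicate block called 483 genes (1482 unadjusted), 0 of the 10 (1 unadjusted) and 12 related genes, with Rb1 at 0.2689 and Cdkn2c at −0.3561. DESeq2 with no replicate block called 160, 0 (1 unadjusted) and 5, with Rb1 at 0.2679 and Cdkn2c at −0.3546. edgeR called 1800 genes and 2 of the 10. The cause of these differences was not tested.

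Fits without 1 library had no block, and a lone sample was assumed to vary like the other group. They called 0 to 118 genes, 0 of the 10 (0 to 2 at an unadjusted p under 0.05) and 0 to 4 related genes, and log2 fold changes over libraries or pairs left out were 0.1804 to 0.3567 for Rb1 and −0.4123 to −0.2977 for Cdkn2c. Signs turned for Cdkn2d without replicate 2 (0.097) or without Prox1 KO replicate 2 (0.0277), for Cdkn2b without Prox1 KO replicate 1 (−0.0453), and for Glb1 without Prox1 KO replicate 1 (0.0049) or control replicate 2 (0.0207). Over libraries or pairs left out the ranges were −0.3934 to 0.097 for Cdkn2d, −0.0453 to 0.1625 for Cdkn2b, −0.1233 to 0.0207 for Glb1, −0.3401 to −0.0741 for Cdkn1b, −0.3757 to −0.0895 for Lmnb1, 0.0252 to 0.1257 for Hmga1, 0.021 to 0.1965 for Hmga2 and −0.1071 to −0.0755 for Cdkn2a. Lmnb1, with the fewest reads of the 10 genes, had the widest 95% interval.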
